A study of Mus musculus with 6 samples.

Results

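The comparison of B29 with control IgG in pancreatic islets of 100 to 200 µm rests on 2 of the 6 arrays of the series. Its members were the probes with a detection p-value under 0.05 on at least 1 of these 2 arrays, which were 17011 (37.6%) of the 45259 usable probes. Of these, 14669 stood for 10654 named genes and 2342 had no name here. All islets came from BALB/c mice, a common inbred laboratory strain. The mice had received 4 intraperitoneal injections of 25 µg of antibody (100 µg in all), on alternate days beginning at 2 weeks of age. The antibody was B29, a monoclonal antibody to serpin B13, or a control monoclonal antibody (IgG). The mice were killed at an age of 5 weeks, 2 weeks from the end of the injections. Islets were graded into 3 classes of diameter, which were below 100 µm, between 100 and 200 µm, and above 200 µm. Each antibody and class had 1 array. The labels do not say how many mice stood behind an array or whether the classes came from the same mice.

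Serpin B13 belongs to the clade B serpins and blocks papain-like cysteine proteases, cathepsin L among them. Pancreatic islets are clusters of hormone-secreting cells, mainly insulin-secreting beta cells, set among the enzyme-secreting acinar cells and ducts of the exocrine pancreas. Islets also hold resident macrophages and blood vessels. B lymphocytes make immunoglobulins and, with macrophages and dendritic cells, present peptides on MHC class II molecules, while the chemokine CXCL13 is known for drawing B lymphocytes into the follicles of lymphoid tissue.

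The B29 array detected 15863 probes (35.0%) and the IgG array 15572 (34.4%), with median raw intensities of 76.6 and 76.0, and the authors' log2 levels had a median of 4.29 on every array. The hormone genes of islets stood near the top of the scale on both arrays. Insulin 2 (Ins2) had a log2 level of 14.20 with B29 and 14.20 with IgG, glucagon (Gcg) 13.84 and 13.97, somatostatin (Sst) 13.31 and 13.32. Acinar genes stood about as high, with the amylase gene Amy2a5 at 13.97 and 13.84 and the elastase gene Cela2a at 13.45 and 13.26. Both arrays thus also held acinar RNA. Ins2 was at the top of the scale, where quantile normalization makes the arrays equal by construction. With 1 array per antibody there is no replicate, so no difference below carries a test or an error, and each is a size of difference between 2 arrays. The arrays of the other classes are separate samples, and the level on them is given beside each main result as the only view of how a probe varied from array to array. In bulk tissue, fewer cells of a type and less RNA per cell cannot be told apart.

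Differences were small for most probes. The median log2 difference, B29 minus IgG, was -0.01 and its SD over the 17011 probes was 0.285, against an SD of 0.312 under 100 µm and 0.346 over 200 µm. At least 2-fold brighter with B29 were 88 probes (0.517% of the 17011), and at least 2-fold dimmer were 10 (0.0588%). The brighter side also held more probes past 1.5-fold, with 411 brighter (2.42%) and 212 dimmer (1.25%). Under 100 µm the same counts past 2-fold were 63 brighter (0.37%) and 33 dimmer (0.194%), and over 200 µm they were 31 (0.193%) and 114 (0.708%), so the excess of brighter probes was not shared by the largest islets. Of the 88 brighter probes, 72 stood for 65 named genes. Probes just inside the detection threshold, with a lower p from 0.04 to 0.05, numbered 757 and had a median difference of -0.04, and the 793 just outside it, up to 0.06, had -0.04. Neither set held a probe past 2-fold, and none could. The level on the brighter array was at most 4.535 inside and 4.489 outside, close to the bottom of the scale.

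**Figure D1:**
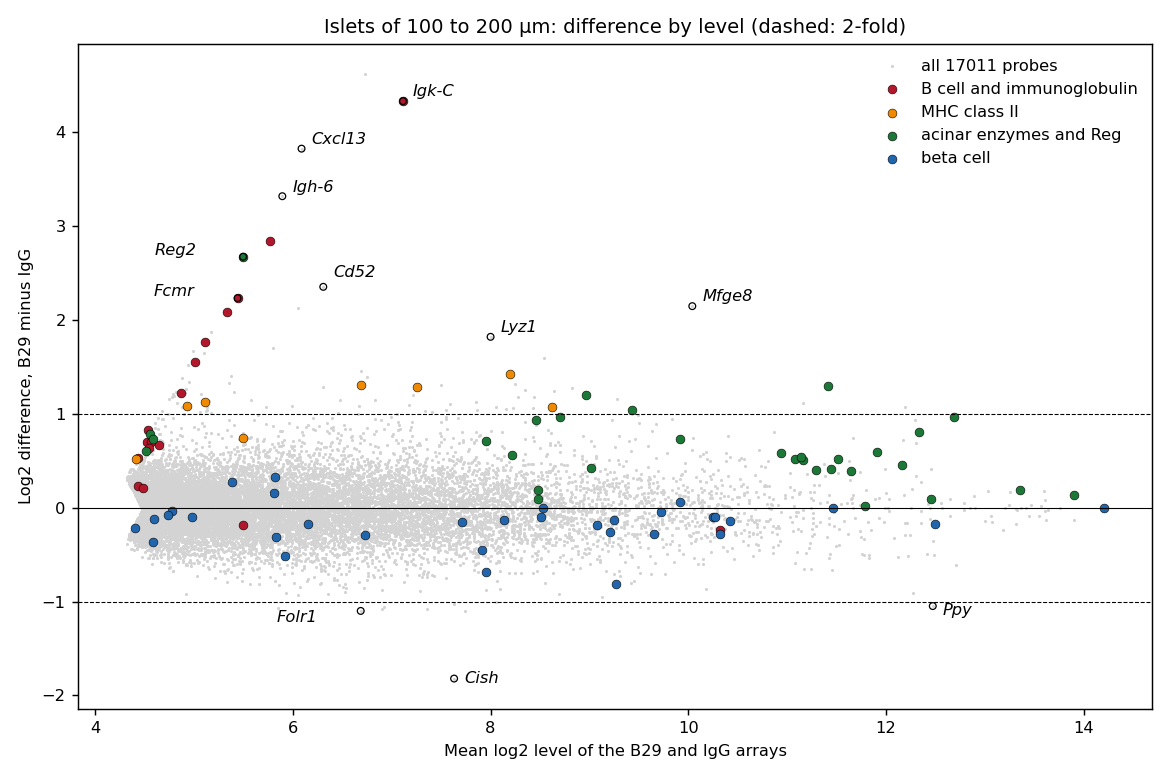
Log2 difference between the B29 and the IgG array of islets of 100 to 200 µm (vertical axis) against the mean log2 level of the 2 arrays (horizontal axis), 1 grey point per probe, with 1 coloured point per gene of 4 groups of lists and open circles at the named genes. Igk-C (4.33), Cxcl13 (3.83) and Igh-6 (3.32) stand far above the dashed 2-fold line, and Cish (-1.82) is the lowest of the 10 probes below the lower one.

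Immunoglobulin genes were among the brightest with B29. The immunoglobulin kappa constant gene Igk-C had a log2 level of 9.28 with B29 and 4.95 with IgG, which is 20.2-fold. Without background correction the difference was 7.65-fold. The 4 arrays of other sizes lay between 4.56 and 4.94 for this probe. The immunoglobulin mu heavy chain gene Igh-6 had levels of 7.55 with B29 and 4.23 with IgG at 1 probe and 7.19 and 4.35 at another. Both Igh-6 probes were detected on the B29 array alone of the 6, and the difference was at least 8.37-fold and at least 6.50-fold. A fold is given as "at least" where 1 array did not detect the probe, and the level on that array was then replaced by its detection floor, the level of the dimmest probe it detected. The lambda light chain gene Igl-V1 stood at 6.38 with B29 and 4.29 with IgG (at least 3.71-fold), and its other detected probe differed by 0.94. Igkv14-100, a kappa variable gene, stood at 5.39 and 4.20. Immunoglobulin genes are close copies of each other, so which gene's RNA a probe bound is uncertain. The probe with the greatest difference of all had no gene name, with a level of 9.05 with B29 and 4.42 with IgG.

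Cxcl13 was next among the named genes, with a log2 level of 8.0 on the B29 array. It was not detected on the other 5 arrays, at 4.17 with IgG in the same class and between 4.15 and 4.21 in the other classes, so that the difference was at least 11.4-fold in the authors' values. Without background correction it was 4.39-fold. Over all 21946 named genes, 3.29% were detected with B29 and not with IgG. Of 12 genes known from lymphoid tissue stroma, 3 were detected with B29 and not with IgG, 1 on both arrays and none with IgG alone. Beside Cxcl13 these were Pdpn (4.62 with B29, 4.41 with IgG), which encodes podoplanin of reticular cells, Madcam1 (4.50 and 4.35), a vascular addressin gene, and, on both arrays, the T cell zone chemokine gene Ccl19 (4.99 and 4.62). The detection floors were 4.47 with B29 and 4.49 with IgG, so Pdpn and Madcam1 lay near the floor with B29 and below it with IgG. Ccl21a and Glycam1, further genes of lymphoid tissue, were not detected on either array.

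Surface and signalling genes of B cells were low but present on the B29 array and below detection on the IgG array. Of the 15 genes of the B cell list on the array, 9 were detected with B29 and 0 with IgG, where 3.29% of all 21946 named genes were detected with B29 and not with IgG and 2.52% the other way round, with 1.07% detected on the B29 array alone of the 6. The same 15 genes gave 0 detected with B29 and 2 with IgG under 100 µm, and 0 and 1 over 200 µm. Fcmr, the IgM Fc receptor gene, stood at 6.56 with B29 and 4.32 with IgG (at least 4.19-fold). Cd79b, a signalling chain of the B cell receptor, stood at 6.00 and 4.23 (at least 2.84-fold), and a further probe of it differed by 1.22. Without background correction the log2 difference was 0.99 for Fcmr and 0.72 for Cd79b, both under 2-fold. The other 7 lay between 4.59 and 4.97 with B29: the survival receptor gene Tnfrsf13c (4.95), the surrogate light chain gene Vpreb3 (4.88), the inhibitory receptor gene Cd22 (4.91), the IgE receptor gene Fcer2a (4.97), the tetraspanin gene Cd37 (4.86), the kinase gene Blk (4.70) and the transcription factor gene Spib (4.59). Ms4a1, Pax5, Cr2, Bank1, Ly6d and Cxcr5, also B cell genes, were not detected on either array, with detection p-values from 0.0705 to 0.188 with B29. Over all 15 genes, detected or not, the median difference was 0.54, against -0.00 over all 21946 named genes.

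Genes of antibody-secreting cells gave a mixed picture. The list of 12 immunoglobulin and plasma cell genes had 8 detected with B29 and 3 with IgG, and a median of 0.14 over all 12. Detected with B29 and not with IgG were 5 of them, where 3.29% of all 21946 named genes were. Mzb1, a chaperone of IgM assembly, stood at 5.79 with B29 and 4.24 with IgG (at least 2.46-fold), and Pou2af1, the octamer coactivator of B cells, at 5.48 and 4.26 (at least 1.99-fold). The secretory genes Xbp1 (10.21 with B29, 10.44 with IgG) and Derl3 (5.40 and 5.58), which islet cells also use, were not brighter. The plasma cell genes Jchain, Prdm1, Sdc1 and Tnfrsf17 were not detected on either array.

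More genes known from B cells stood among the 65 without being on a list, and are named here after their values were seen. They were Cd72 (5.52 with B29, 4.30 with IgG), a coreceptor gene, Fcrla (5.33 and 4.17), an intracellular Fc receptor-like gene, the proton channel gene Hvcn1 (5.62 and 4.28), the Cullin adaptor gene Klhl6 (6.08 and 4.67) and Lrmp (5.67 and 4.59), which encodes a lymphoid-restricted membrane protein. Il4i1, an amino acid oxidase gene of antigen-presenting cells, stood at 6.10 and 4.24 (at least 3.06-fold), and the activation marker gene Cd69 at 5.38 and 4.27 (at least 1.86-fold). Fcrla, Hvcn1, Il4i1 and Cd69 were detected on the B29 array alone of the 6.

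T cell genes did not share this pattern. Of the 21 genes of the T and NK cell list, 3 were detected with B29 and the same number with IgG, none with 1 antibody alone, and the median over all 21 was -0.02. The T cell receptor complex genes Cd3d, Cd3e, Cd3g and Cd247, and Cd4 and Cd8a, were not detected on either array. The 3 detected were the perforin gene Prf1 (7.97 with B29, 7.14 with IgG), Thy1 (5.86 and 5.66) and Cd8b1 (9.17 and 9.38).

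**Figure D2:**
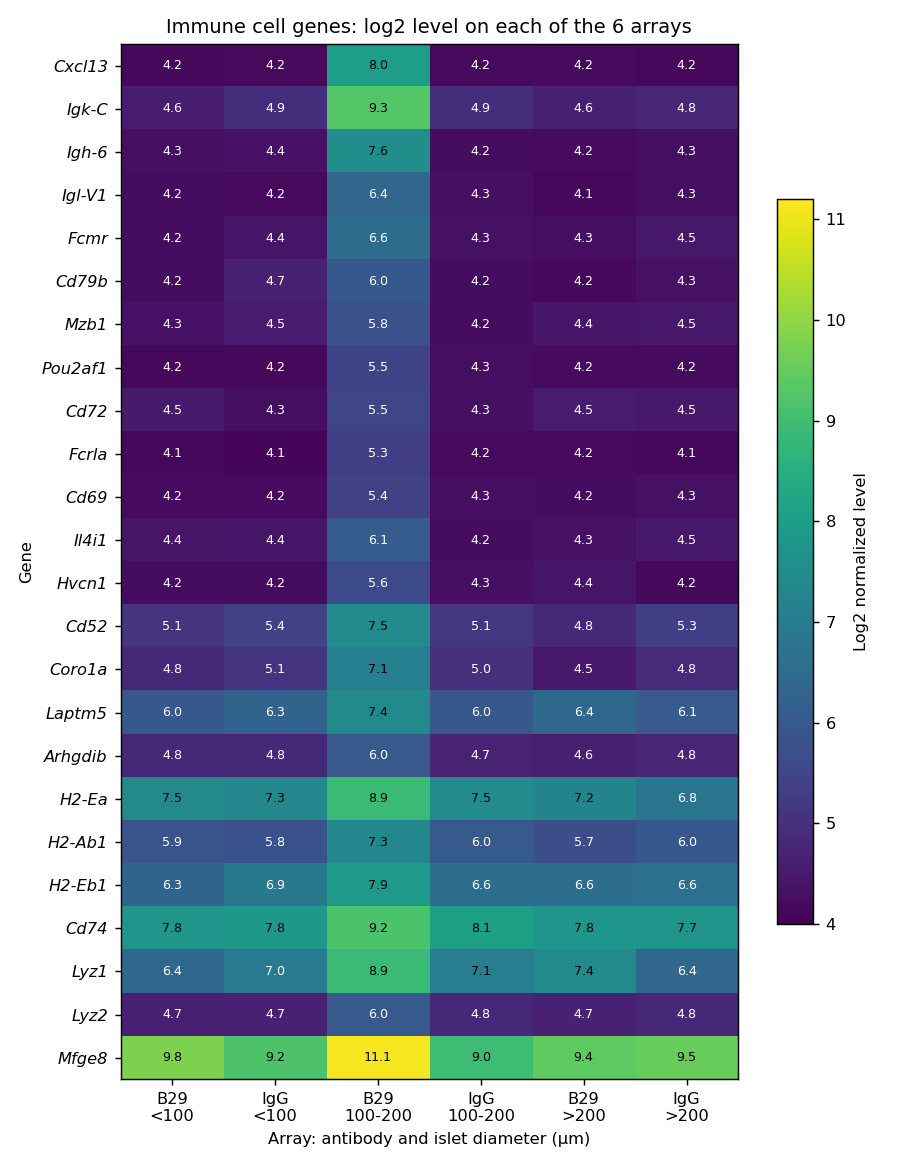
Log2 normalized level, as a colour and a printed value, of 24 genes at least 2-fold brighter with B29 in islets of 100 to 200 µm (rows) on each of the 6 arrays (columns, B29 left of IgG within each diameter class, classes from small to large). The bright column is the B29 array of 100 to 200 µm, where Cxcl13 stood at 8.0 and Igk-C at 9.28.

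MHC class II genes, which encode the molecules that present peptides to helper T cells and their loading machinery, were brighter as a group and were measurable on both arrays. Of 12 genes on the array, 8 were detected with B29 and 6 with IgG. At least 2-fold brighter were 6 of them, where 0.554% of the 10654 genes counted were, and the median over all 12 was 0.90. H2-Ea stood at 8.91 with B29 and 7.49 with IgG, H2-Ab1 at 7.35 and 6.04, and H2-Eb1 at 7.90 and 6.61. Without background correction H2-Ea (1.18) stayed past 2-fold, and H2-Ab1 (0.84) and H2-Eb1 (0.93) did not. The invariant chain gene Cd74 stood at 9.15 and 8.08, and 2 further probes of it differed by 1.06 and 0.41. The peptide loading genes H2-DMb2 (5.68 with B29, 4.55 with IgG), H2-DMb1 (5.47 and 4.39), H2-DMa (5.87 and 5.13) and the loading modulator gene H2-Oa (4.67 and 4.16) followed. For each of H2-Ea, H2-Ab1, H2-Eb1 and Cd74 the B29 array was the highest of the 6, with the arrays of other sizes between 6.80 and 7.46, 5.72 and 5.99, 6.33 and 6.92, and 7.74 and 7.85. H2-Aa, the partner chain of H2-Ab1, and Ciita, the master regulator of class II genes, were not detected on either array. MHC class I genes, which nearly all cells express, had no such difference: 0 of 19 were at least 2-fold brighter and their median was 0.03. H2-K1 stood at 6.65 with B29 and 6.62 with IgG, H2-D1 at 8.47 and 8.56, and B2m, the light chain gene, at 8.70 and 8.32.

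Promoters of class II genes are known for a conserved block of boxes that ends in an inverted CCAAT motif bound by the factor NF-Y. Since this group moved together, 220 bases around the annotated start, 200 before it and 20 after, are shown for 3 of its genes on the plus strand of GRCm38.p6 from RefSeq: H2-Eb1 at chr17:34305667-34305886, H2-DMb1 at chr17:34152991-34153210 and H2-DMb2 at chr17:34145049-34145268. Capitals mark each CCAAT or its reverse complement ATTGG.
H2-Eb1: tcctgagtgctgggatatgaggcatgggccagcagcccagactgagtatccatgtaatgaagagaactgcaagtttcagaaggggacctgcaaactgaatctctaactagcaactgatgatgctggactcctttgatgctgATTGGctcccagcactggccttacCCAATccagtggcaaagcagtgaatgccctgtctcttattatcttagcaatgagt
H2-DMb1: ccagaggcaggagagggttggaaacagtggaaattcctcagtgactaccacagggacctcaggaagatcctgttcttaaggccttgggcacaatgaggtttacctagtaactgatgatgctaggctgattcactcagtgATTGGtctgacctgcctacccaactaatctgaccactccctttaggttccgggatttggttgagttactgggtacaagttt
H2-DMb2: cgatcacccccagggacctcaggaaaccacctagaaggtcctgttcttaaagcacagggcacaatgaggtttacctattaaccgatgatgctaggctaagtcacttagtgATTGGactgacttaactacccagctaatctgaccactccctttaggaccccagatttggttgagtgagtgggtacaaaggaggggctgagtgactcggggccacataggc
The motif began 59 and 35 bases before the start in H2-Eb1, 61 bases before it in H2-DMb1 and 90 bases before it in H2-DMb2. Over the windows of 300 bases that run from 250 before to 50 after each start, the letters CCAAT occurred on either strand in 5 of 6 promoters of the 5 detected class II genes that had an entry, against 37.4% of all 32851 promoters. The share was 39.2% of the 51 promoters matched to 41 of the 65 brighter genes. These are matches of letters in a window of the reference genome, and the sequence of the BALB/c mice was not examined.

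Genes shared by leukocytes were brighter too, with the same split between detected and not detected. Of the 24 genes of the pan-leukocyte list, 19 were detected with B29 and 9 with IgG, 5 were at least 2-fold brighter, and the median over all 24 was 0.34. Detected with B29 and not with IgG were 10 of them, where 3.29% of all 21946 named genes were. At least 2-fold brighter were 0.554% of the 10654 genes counted. Cd52, a small surface glycoprotein of lymphocytes, stood at 7.49 with B29 and 5.13 with IgG (5.11-fold). Coro1a, which encodes an actin regulator of leukocytes, had 4 detected probes, with differences of 2.13, 1.71, 0.94 and 0.78, of which 2 were detected with B29 alone. The lysosomal gene Laptm5 stood at 7.42 and 5.97, Arhgdib at 6.02 and 4.69, and the cytohesin partner gene Cytip at 5.55 and 4.28 (at least 2.09-fold). Ptprc, the CD45 gene that defines leukocytes, was not detected on either array. Tmsb4x, the thymosin gene that most cells express, stood at 10.77 with B29 and 10.89 with IgG.

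Macrophage genes were split. The lysozyme genes Lyz1 (8.91 with B29, 7.09 with IgG) and Lyz2 (6.02 and 4.79) were the 2 of 27 past 2-fold. Of the 27, 15 were detected with B29 and 12 with IgG. Detected with B29 and not with IgG were 3, where 3.29% of all 21946 named genes were. At least 2-fold brighter were 0.554% of the 10654 genes counted. Lyz1 lay between 6.37 and 7.42 on the arrays of other sizes, with a difference of 1.05 over 200 µm and -0.56 under 100 µm. Several macrophage genes were close on the 2 arrays: the complement genes C1qa (5.71 with B29, 5.56 with IgG), C1qb (5.75 and 5.40) and C1qc (5.09 and 5.11), and the growth factor receptor gene Csf1r (5.16 and 4.94). The 3 detected with B29 and not with IgG were Cd86 (4.86 and 4.23), Cd68 (4.85 and 4.36) and Adgre1, the F4/80 gene (4.48 and 4.25). All 3 were low, and Adgre1 lay at the floor. Ms4a7 was lower with B29 (5.00 and 5.55). The list's median over all 27 was 0.02. Mfge8, a secreted bridging protein gene for the uptake of dying cells, was among the brightest, at 11.12 with B29 and 8.97 with IgG (4.43-fold), and a second probe stood at 8.90 and 7.59. The arrays of other sizes lay between 9.19 and 9.79 for the first of these probes and between 7.40 and 7.51 for the second.

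**Figure D3:**
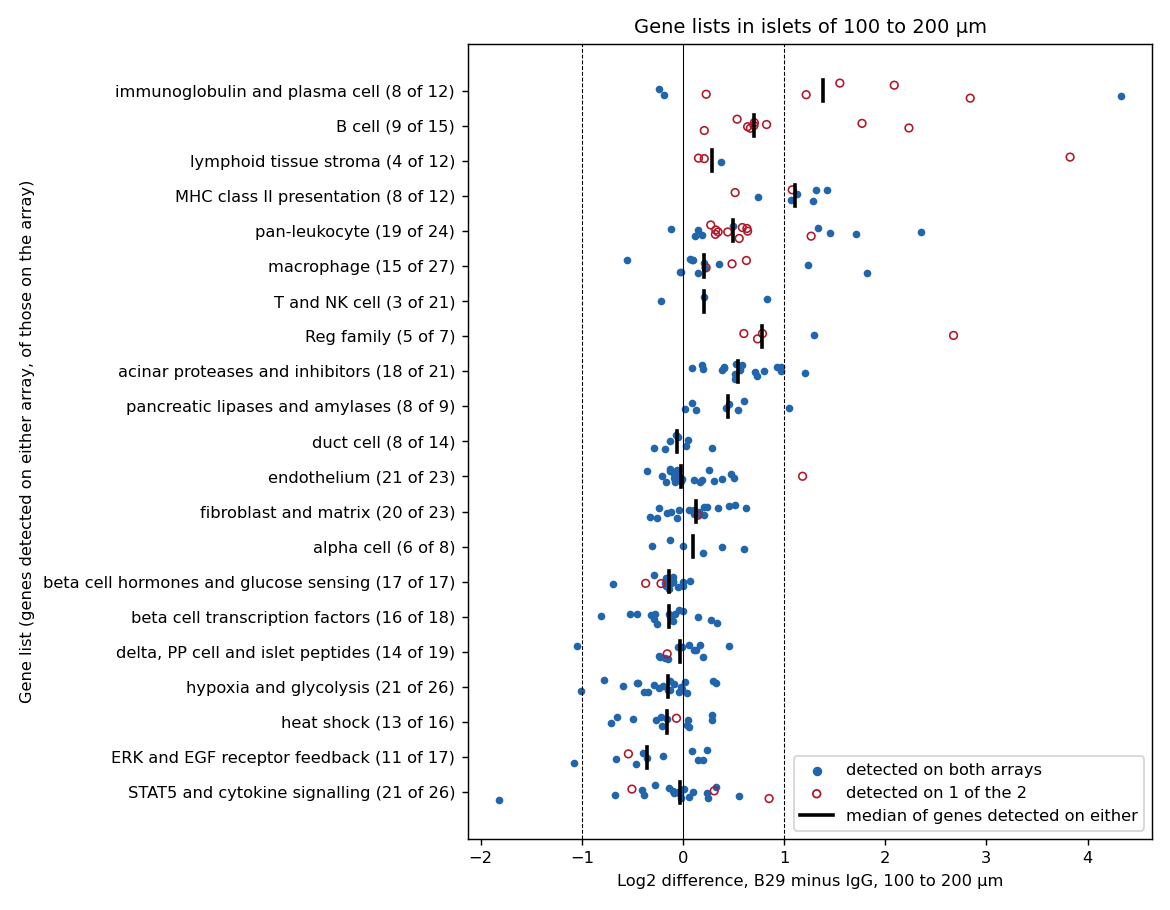
Log2 difference, B29 minus IgG in islets of 100 to 200 µm (horizontal axis), of each gene of 21 lists (rows) that was detected on either array, 1 probe per gene. Filled points were detected on both arrays, open points on 1 of them, and bars mark the median of the points shown: the B cell row holds 9 open points, detected with B29 alone and so placed right of 0 by the filter, and the beta cell hormone row a median of -0.14.

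The levels on the 4 arrays of other sizes separate the 88 brighter probes into 2 kinds. For 60 of them the B29 array lay farther than the IgG array from the median of these 4, and for 28 the IgG array lay farther. Over all 17011 probes the B29 array lay farther for 47.7% and the IgG array for 52.3%. The B29 array was the highest of the 6 for 67 of the 88 (14.4% of all probes), the IgG array was the lowest for 33 (13.1% of all), and 21 were detected on the B29 array alone (2.75% of all). The 88 were picked for a B29 level at least 2-fold above the IgG level. That choice by itself raises each of these counts above the shares of all probes. The split was chosen after the values were seen, and it describes the 88 probes without a test. All 22 genes of the immune lists among the 65 fell in the first kind, which had 41 genes. Of the 10654 genes counted, 1.27% were on the immune lists. Some of the 22, such as Igh-6, Cxcl13 and Fcmr, were detected on the B29 array alone of the 6. For these genes the side followed from the detection filter. The second kind had 24 genes, of which 4 were on exocrine lists, where 0.497% of the 10654 genes counted were. Exocrine levels fell steeply with islet size, so for these 4 the median of the other arrays lies on that gradient and the IgG level was not the lowest of the 6.

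**Figure D4:**
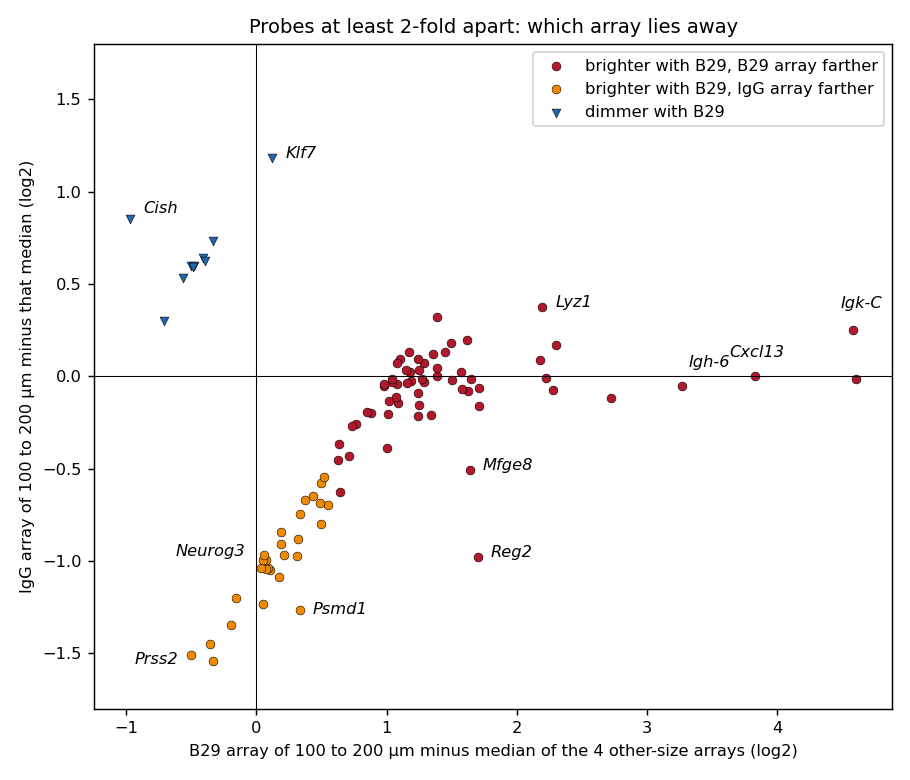
For each probe at least 2-fold apart in islets of 100 to 200 µm, the B29 level (horizontal axis) and the IgG level (vertical axis) minus the median of the 4 arrays of other sizes, in log2. Red points, with Igk-C at 4.58 on the horizontal axis, run along the line where the IgG array is at the median, and orange points, with Psmd1 at -1.26 on the vertical axis, lie farther from 0 on the vertical than on the horizontal axis.

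Other probes of the same genes were set beside the one with the largest difference. Of the 65 genes at least 2-fold brighter, 18 had other probes that both arrays detected, 27 in all, of which 22 stood above 0 and 8 were at least 1.5-fold brighter, with a median of 0.22. This count, made after the data were seen, leaves out probes that passed through the B29 array alone. Of all 17011 probes, 48.2% stood above 0 and 2.42% were at least 1.5-fold brighter. Psmd1, a subunit of the proteasome cap, had probes that disagreed: its brightest-with-B29 probe stood at 9.34 with B29 and 7.74 with IgG, while its other probes stood at 9.02 and 9.37, and at 4.53 and 4.58. Cdca4, a cell cycle gene, stood at 6.95 and 5.66 at 1 probe and differed by 0.04 and -0.03 at the others. Probes of 1 gene share the RNA of their array and are a check of the probe, not replicates. Over the 3025 genes with at least 2 detected probes, the differences of a pair correlated with Pearson's r of 0.197 across genes, with the same sign in 53.3%, where both probes share array and sample.

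Of the 24 genes of the second kind, 8 had another detected probe. The largest of these other differences stood above 0 in 6 genes and reached 1.5-fold in 0, with a median of 0.13. The 24 genes, 18 of them on none of the lists, are described by examples chosen after their values were seen. Among them were the respiratory chain gene Ndufa9 (8.98 with B29, 7.72 with IgG), the nucleolar gene Npm1 (9.86 and 8.71), the mitochondrial ribosome gene Mrpl53 (8.42 and 7.29), the syntenin gene Sdcbp (8.87 and 7.69), the membrane remodelling gene Chmp4b (7.21 and 6.12), the ribosome assembly gene Nip7 (6.54 and 5.45) and the RNA decay gene Zfp36l1 (8.38 and 7.34). For Mrpl53 the other 4 arrays lay within 8.28 and 8.36, next to the B29 level. Neurog3, the transcription factor of endocrine progenitors, stood at 6.26 with B29 and 5.19 with IgG, with the other 4 arrays between 5.98 and 6.45, so that the IgG array was the lowest of the 6 and the B29 array lay within the rest.

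Exocrine genes were brighter by a modest amount along a steep gradient with islet size. Of the 21 genes of acinar proteases and their inhibitors, all 18 detected genes stood above 0, 1 of them past 2-fold, and the median over all 21 was 0.51. Of the 10654 genes counted, 47.7% stood above 0 and 0.554% were at least 2-fold brighter. Lipases and amylases had 8 detected of 9, all above 0, and a median of 0.42. Prss2, an anionic trypsinogen gene, stood at 9.57 with B29 and 8.37 with IgG, the trypsin inhibitor gene Spink1 at 8.93 and 7.99, the elastase gene Cela1 at 11.78 and 11.26, and the carboxypeptidase gene Cpa1 at 11.42 and 10.91. Pla2g1b, the pancreatic phospholipase gene, stood at 9.95 and 8.91, and the amylase gene Amy2a5 at 13.97 and 13.84. Trypsinogen genes are near copies of each other and a probe may bind several. The summed level of the protease list, in log2, was 17.13 with B29 and 16.91 with IgG under 100 µm, 15.69 and 15.15 at 100 to 200 µm, and 11.64 and 14.73 over 200 µm. The 2 arrays of 100 to 200 µm thus lay between those of the other classes, and the share of acinar tissue behind them was not tested. Duct genes, also of the exocrine pancreas, had a median of 0.01 over 14 genes with 0 past 2-fold.

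The Reg genes, which encode secreted lectins that acinar and injured islet cells make, were on the brighter side. Of 7 on the array, 5 were detected with B29 and 1 with IgG. Detected with B29 and not with IgG were 4 of them, where 3.29% of all 21946 named genes were. Reg2 stood at 6.83 with B29 and 4.16 with IgG (at least 5.08-fold), against 9.61 and 5.92 under 100 µm and 4.35 and 4.17 over 200 µm. Reg1 stood at 12.06 and 10.76, against 13.34 and 12.73 under 100 µm and 6.40 and 10.40 over 200 µm. Reg3a (4.95 with B29, 4.17 with IgG), Reg3d (4.95 and 4.21) and Reg3b (4.81 and 4.21) were near the floor. Reg3g was not detected on either array.

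Beta cell genes were close on the 2 arrays and stood mostly just below 0, while other endocrine lists were mixed. Of 17 beta cell genes of hormones and glucose sensing, 1 stood above 0 and 14 below it by more than rounding, with 0 past 2-fold and a median of -0.14, where 48.9% of all 21946 named genes stood above 0. Among them were the glucose transporter gene Slc2a2 (9.95 with B29, 9.88 with IgG), the amylin gene Iapp (9.70 and 9.75), urocortin 3 (Ucn3, 10.35 and 10.49), the glucose-6-phosphatase gene G6pc2 (12.41 and 12.58) and Sez6l (7.61 and 8.30), a membrane protein gene. Of 18 beta cell transcription factor genes, 16 were detected, 13 of them below 0, with a median of -0.12 over all 18. Insm1 (8.86 with B29, 9.68 with IgG) had the lowest difference, while Pdx1 (8.07 and 8.21), Nkx6-1 (9.08 and 9.34) and Mafa (4.70 and 4.78) differed little. The array as a whole had a median difference of -0.01, so the median of -0.14 lay 0.13 below it. Over their detected genes, the prohormone processing and granule list had 3 above and 10 below 0 with a median of -0.16, the alpha cell list 3 and 2 with 0.10, the endocrine progenitor and Notch list 9 and 6 with 0.09, the list of delta and PP cells and islet peptides 6 and 8 with -0.03, and the exocytosis list 6 and 7 with -0.06.

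Beside the immune genes, few markers of other cell types differed. Endothelial genes had a median of -0.02 over the 21 detected. The von Willebrand factor gene Vwf (5.37 with B29, 4.19 with IgG) was the 1 past 2-fold, where 0.554% of the 10654 genes counted were. Vwf was not detected with IgG, and with that level at the floor its difference was at least 1.84-fold. The vessel genes Pecam1 (6.50 and 6.11), Cdh5 (5.54 and 5.60) and Plvap (9.07 and 9.20) were close. Of 23 fibroblast and matrix genes, 0 were past 2-fold, with Dcn (6.76 and 6.14) and Col1a1 (5.02 and 5.35) on either side. Acta2, the smooth muscle actin gene, stood at 8.07 and 7.03, and its other detected probes differed by 0.62, 0.32 and 0.06. The haemoglobin genes Hba-a1 (11.02 and 10.40) and Hbb-b1 (10.90 and 10.81) were both brighter by less than 2-fold.

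The dimmer side was short and led by Cish. Cish, which encodes a suppressor of cytokine signalling induced through STAT5, stood at 6.72 with B29 and 8.54 with IgG (3.53-fold dimmer). Under 100 µm it stood at 7.23 with B29 and 8.67 with IgG, and over 200 µm at 6.79 and 8.15. It was thus dimmer with B29 in each class. The share of all probes that were dimmer in all 3 classes was not counted. The STAT5 and cytokine list did not follow as a group. Of its 26 genes, 21 were detected, with 9 above and 12 below 0 and a median of -0.03. Cish itself was the 1 at least 2-fold dimmer, where 0.0657% of the 10654 genes counted were. Socs2, another induced suppressor, stood at 7.15 and 7.19, Socs3 at 8.42 and 7.86, Pim3 at 7.48 and 7.25, and the cyclin gene Ccnd2 at 8.96 and 9.64.

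The promoter of Cish is shown because Cish is the gene that stands apart on the dimmer side and STAT5 is known to bind motifs of the form TTCNNNGAA near its start. The stretch is chr9:107296459-107296678 on the plus strand of GRCm38.p6 from RefSeq, 200 bases before to 20 after the annotated start, with capitals at each match of that motif.
Cish: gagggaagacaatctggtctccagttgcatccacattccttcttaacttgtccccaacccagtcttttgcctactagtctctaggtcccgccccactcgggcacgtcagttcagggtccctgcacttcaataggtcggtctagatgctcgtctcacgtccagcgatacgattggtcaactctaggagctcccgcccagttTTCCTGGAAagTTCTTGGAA
The motif, which reads the same on both strands, began at bases 1 and 12 from the start. It occurred in 8.3% of all 32851 promoters of 300 bases. Among the 7 promoters matched to the 9 genes at least 2-fold dimmer, Cish was the 1 with a match.

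The other 8 named genes past 2-fold lay close to that line. Folr1, a folate receptor gene, stood at 6.14 with B29 and 7.24 with IgG, and its other probe at 6.30 and 6.74. The inducible heat shock protein gene Hspa1a stood at 7.20 and 8.29 and differed by -0.66 and -0.64 at its other probes. Hspa1b, a near copy that such probes may also bind, differed by 0.36 and -0.22. Phlda1, a growth factor-induced gene, stood at 6.37 and 7.44, Arhgap44 at 6.81 and 7.89, and Fam135a at 7.12 and 8.14. Klf7, a transcription factor gene, stood at 6.39 with B29 and 7.45 with IgG, against 7.42 and 6.23 over 200 µm, and its other probes differed by -0.24 and -0.27. Cited2, a transcriptional coregulator gene, stood at 7.55 and 8.56, with differences of -0.60 and -0.49 at its other probes. The B29 array was the lowest of the 6 for 5 of the 10 dimmer probes, and the IgG array was the highest for 8. The choice of probes with a B29 level below the IgG level raises both counts.

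Ppy, the pancreatic polypeptide gene of PP cells, stood at 11.95 with B29 and 13.00 with IgG. Under 100 µm it stood at 11.41 and 12.21 and over 200 µm at 12.50 and 12.61, so that the IgG array of 100 to 200 µm was the highest of the 6. The related peptide gene Pyy stood at 13.07 and 13.31. Peptides of other islet cells differed little, with the appetite peptide gene Ghrl at 6.12 and 6.07. Chga, the chromogranin gene of endocrine granules, differed by -0.87 at 1 probe and by 0.14 and 0.09 at its 2 others.

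Lists of growth factor and stress responses differed in direction, most by small amounts. Medians are over the detected genes unless said otherwise. Of the 10654 genes counted, 47.7% stood above 0. The ER stress list had 13 above and 9 below 0, with a median of 0.07, and the immediate early list 11 and 11, with -0.01. Of 17 genes of ERK and EGF receptor feedback, 11 were detected, 4 of them above 0 and 7 below, with a median of -0.36. Over all 17 the median was -0.05. Of the 11 detected, 1, Phlda1, was at least 2-fold dimmer. Over the 10654 genes counted this share was 0.0657%. The phosphatase gene Dusp1 stood at 11.13 with B29 and 11.79 with IgG, the EGF receptor gene Egfr at 5.28 and 5.75, and the receptor inhibitor gene Errfi1 at 8.54 and 8.94. Of 16 heat shock genes, 13 were detected, 5 of them above 0 and 8 below, with a median of -0.16. Among the 13 were Hspb1 at 6.58 and 7.29, Dnajb1 at 11.51 and 12.01 and Hsph1 at 10.02 and 9.73. Of 26 hypoxia and glycolysis genes, 21 were detected and 17 of them stood below 0, with a median of -0.15 over the 21. Among the 21 were Vegfa at 8.71 and 9.31, Ddit4 at 7.67 and 8.46, Aldoa at 8.35 and 8.81 and Pgk1 at 7.81 and 7.52. Among cathepsins and their inhibitors, the legumain gene Lgmn stood at 6.75 with B29 and 5.93 with IgG, and the cathepsin genes Ctsk at 6.06 and 5.46, Ctsl at 4.71 and 4.65 and Ctsb at 9.89 and 9.83. Serpinb13 was not detected on either array.

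In the other diameter classes, the probes where the B29 array lay farther had medians close to 0, and most of the dimmer probes stood below 0 there too. Of the 60 probes where the B29 array lay farther, 38 were detected under 100 µm, with a median difference of 0.02 there, and 33 over 200 µm, with a median of -0.08. The 28 probes where the IgG array lay farther had medians of 0.34 and -0.16. In these 28, 8 were at least 2-fold dimmer with B29 over 200 µm, among them Reg1 (-4.00) and Prss2 (-3.07). The 10 dimmer probes had medians of -0.39 and -0.35, with 9 below 0 under 100 µm and 8 over 200 µm. No test of a difference between classes exists with 1 array per group.

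**Figure D5:**
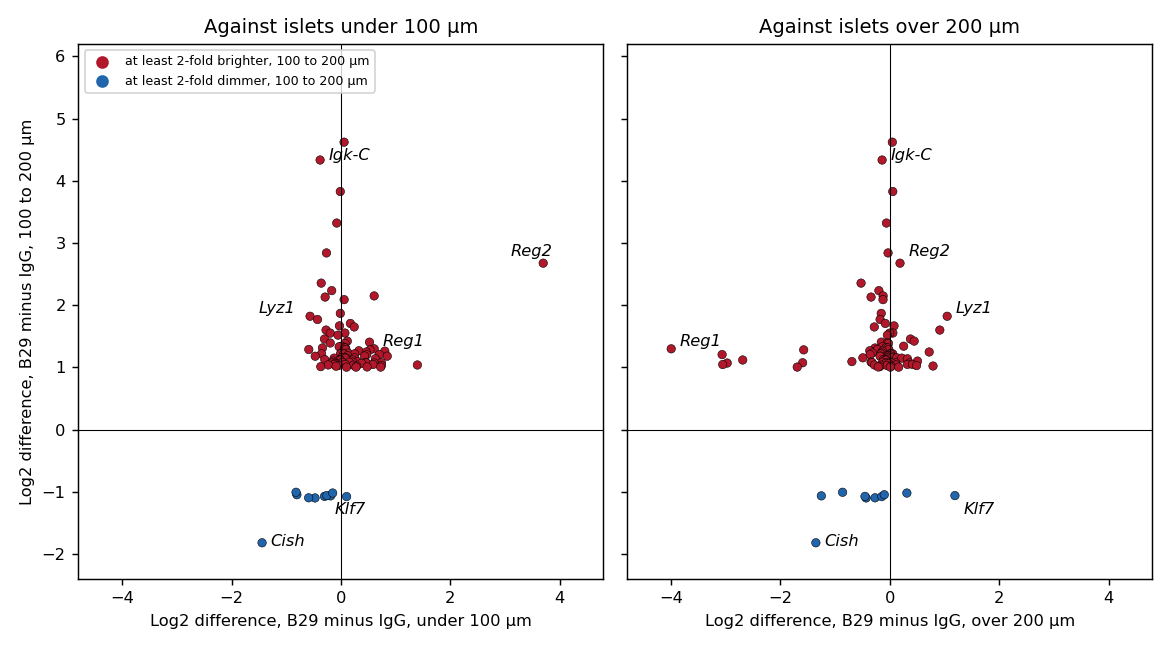
Log2 difference, B29 minus IgG, of the probes at least 2-fold apart in islets of 100 to 200 µm (vertical axis) against the difference of the same probe under 100 µm (left) and over 200 µm (right). Igk-C (4.33) has -0.38 and -0.14 in the other classes, Cish is below 0 in both (-1.44 and -1.35), and Reg1 stands at -4.00 on the right.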

How the data were processed

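Islet RNA was hybridised to Illumina mouse bead arrays, 1 array for each of the 6 combinations of antibody and diameter class. The deposited raw table holds the intensity and detection p-value of each probe, not normalized, as read from the values. The authors' value table holds log2 values, and limma 3.34.9 is named per the submitters' processing notes. Recomputing them with neqc in limma 3.58.1 (R 4.3.3; background from the detection p-values, offset of 16, quantile normalization) gave differences of at most 0.00037 in log2. The deposited p-values came in 936 steps. Of 46255 raw rows, 974 were controls and 22 held a word in place of a signal, and neither were used, which left 45259 probes. Precision is limited by the number of arrays, and no count-based depth exists.

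The B29 minus IgG difference of the authors' log2 values was taken per probe with detection p under 0.05 on either array of 100 to 200 µm. No test was run, since each group has 1 array. For folds written as "at least", undetected levels were replaced by the array's detection floor, which is the level of the dimmest probe it detected. Names came from the platform's probe table, updated through a RefSeq gene table of GRCm38.p6: 35784 probes had 1 symbol (28620 through Entrez gene, 2637 through a transcript, 4527 as the platform gives it) and 9475 had none. For lists and counts of genes, the probe with the highest mean of the gene was taken.

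The genes named were the 25 highest and 25 lowest differences, and members of 49 gene lists, each counted in full. Other genes were named after their values were seen. The members, lists and rules were chosen with earlier results of these data known. The counting code was run on simulated data, where 100 of 100 planted brighter and 100 of 100 planted dimmer probes were recovered among 17011. The planted differences lay past 2-fold and held no noise, so full recovery was fixed in advance. It checks the code and not how reliable a difference past 2-fold is in these data. Promoter sequences came from RefSeq for 300 bases around each start. They are those of the reference genome GRCm38.p6 and were not read from the BALB/c mice. Alternatives were other normalizations, background corrections and detection filters, 1 probe per gene, and values at the floor.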

Additional observations from a re-analysis of the deposited data

Results flagged for a closer look

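Several genes and lists went one way between B29 and IgG in islets of 100 to 200 µm and the opposite way in another diameter class. With 1 array per group these differences between classes were not tested, and no explanation was tested.

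Exocrine genes were brighter with B29 at 100 to 200 µm and dimmer over 200 µm. The log2 difference was 1.30 against -4.00 for Reg1, 1.21 against -3.07 for Prss2, 1.12 against -2.69 for Gm10334, 1.07 against -1.60 for Dmbt1, 1.07 against -2.97 for Gm5409 and 1.05 against -3.06 for Pla2g1b. The list of acinar proteases and inhibitors had a median of 0.54 over its detected genes, against -3.02 over 200 µm, and the list of pancreatic lipases and amylases 0.44 against -3.17. The 4 detected red blood cell genes had a median of 0.34 at 100 to 200 µm, against -0.65 under 100 µm and -0.28 over 200 µm. Klf7 went the other way, with -1.06 at 100 to 200 µm and 1.19 over 200 µm.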

How the results depend on the processing

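The counts of 88 brighter and 10 dimmer probes depended most on the background correction. Without background correction they were 22 and 1, and with normexp and an offset of 50 they were 29 and 1, since both leave more background in low levels. Median centring gave 129 brighter and 2 dimmer and moved the median of all probes to 0.08, against -0.01. Requiring detection on both arrays left 57 brighter, by construction without the genes that IgG islets did not show. Cyclic loess (99 and 9), floored values (76 and 10), 1 probe per gene (59 and 7) and a stricter or no detection filter (88 and 10 each) stayed within 1.5 times. Detection on at least 2 of 6 arrays, an alternative added after the data were seen, left 67 brighter, which removes Cxcl13 and Igh-6. For lists, that filter and floored values were also added after the data were seen.

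Igk-C, Cxcl13, Igh-6, Cd52, Mfge8, Coro1a, Lyz1, H2-Ea and Reg2 stayed past 2-fold in 7 of 7 normalization, background and floor settings, as did Cish (-1.82 to -1.40), with Igk-C down to 2.94 and Cxcl13 to 2.13 without background correction. Without it Fcmr (0.99), Igl-V1 (0.90), Laptm5 (0.93) and H2-Eb1 (0.93) were no longer past 2-fold, and without it or with normexp neither were Il4i1 (lowest 0.77), Cd79b (0.72), Mzb1 (0.61), H2-Ab1 (0.84), Klhl6 (0.59), Arhgdib (0.55), Hvcn1 (0.50) and Cytip (0.47). Ppy and Cited2 were past it in 3 of 7. The 7 settings include the authors' values and their recomputation, which differ by at most 0.00037 and count as the same setting. The floor setting leaves probes detected on both arrays unchanged. The median of the immunoglobulin and plasma cell list was 1.38 over its 8 detected genes and -0.18 with detection on both arrays, which leaves 3 genes. No other list median changed sign past the limit used. No paired analysis was possible because each group has 1 array and the labels give no replicate numbers, and for the same reason no replicate could be left out. Levels near the detection floors of 4.47 and 4.49 limit what can be read from the B cell genes, and 1 array a side gives no error for any value.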

Other observations

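Of the 88 probes at least 2-fold brighter with B29, 16 had no gene name here. The list of oxidative phosphorylation genes had 15 of 22 detected genes above 0, with Ndufa9 the 1 past 2-fold, and the list of proliferation genes 12 of 21 above 0 with 0 past 2-fold. Interferon-induced genes had 7 of 16 detected genes above 0 and 0 past 2-fold, with Usp18 at 6.29 with B29 and 7.15 with IgG. Another probe of Usp18, detected with B29 and not with IgG, differed by 0.50. Of the 10654 genes counted, 47.7% stood above 0 and 0.554% were at least 2-fold brighter. These values are given as they stand.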
